A study of Mus musculus with 34 samples.

Results

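The Hippo pathway genes described here are 10 genes taken by their symbols from the deposited tables: the co-activators Yap1 and Wwtr1, the DNA-binding partners Tead1, Tead2, Tead3 and Tead4, the kinases Lats1 and Lats2, and the upstream regulators Amot and Nf2. All 10 were found in each table, among 49686 gene symbols for zygotes and late 2-cell embryos and 51734 for blastocysts. The rule names the genes and has no threshold on a measured value, but they were chosen with earlier results of these data known. Single mouse embryos had been sequenced after zygotes were injected with mRNA for wild-type CHK1, the DNA damage checkpoint kinase (WT), or for its mutant form R442Q. After WT mRNA, 5 zygotes, 4 late 2-cell embryos and 7 blastocysts were sequenced, and after R442Q mRNA 6, 5 and 7, with 1 embryo in each library. In this text genotype means the form of the injected CHK1 mRNA, not a difference in the embryos' own genes. The blastocysts of both genotypes had been cultured with a CHK1 inhibitor at 30 nM, and the zygotes and late 2-cell embryos had not. Every embryo had received CHK1 mRNA, and no uninjected embryo was analysed here. The study asks how the transcriptome responds when this checkpoint is perturbed.

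In the Hippo pathway a kinase cascade ends in LATS1 and LATS2, which phosphorylate the co-activators YAP (Yap1) and TAZ (Wwtr1) and keep them out of the nucleus. Merlin, the product of Nf2, and angiomotin, the product of Amot, promote that phosphorylation, while unphosphorylated YAP and TAZ enter the nucleus and activate genes through TEAD proteins. In the mouse blastocyst this switch separates outer trophectoderm cells, where TEAD4 with YAP activates Cdx2 and Gata3, from inner cells, where the cascade is active. Transcript levels do not show where these proteins are or how they are phosphorylated.

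Sequenced depth was 7183632 to 11296522 counts per zygote and 5727956 to 8916343 per late 2-cell embryo, and it is unknown for blastocysts, for which FPKM (fragments scaled to transcript length and library size) was used. Chek1, whose reads include the injected mRNA and cannot tell its forms apart here, was at 4593 to 8653 CPM (counts scaled to the library total) in WT zygotes and 5597 to 7171 in R442Q zygotes. Oocyte markers (6 genes) summed to 2684 to 3432 FPKM (median 3206) in WT and 1821 to 2784 (median 2086) in R442Q zygotes, and to 197 to 595 and 305 to 507 in late 2-cell embryos. Among them Zp3 and Ooep were lower in R442Q zygotes without overlap, where 8.66% of genes did not overlap in FPKM. Ooep (14.9 to 25.7 FPKM in WT, 49.7 to 135 in R442Q) and Nlrp5 (22.2 to 44.5 and 44.7 to 50.5) were higher in R442Q late 2-cell embryos without overlap, where 10.4% of genes did not overlap in FPKM. Gdf9 (medians 86.5 in WT and 53.8 in R442Q) and Zp3 (72.7 and 57.9) had lower medians in R442Q with overlap, and the part of these markers in the genotype differences of the Hippo genes was not tested. Trophectoderm markers (6 genes, including Cdx2 and Gata3) summed to 1246 to 24283 FPKM in blastocysts. Epiblast and primitive endoderm markers (6 genes each) summed to 87.0 to 760 and 11.1 to 254 FPKM in blastocysts. Cumulus cell markers (8 genes) summed to at most 20.6 FPKM in any embryo. Genome activation markers (6 genes) summed to 111 to 1061 FPKM in WT and 567 to 1929 in R442Q late 2-cell embryos, with overlap, and their part in the genotype differences was not tested. Summed FPKM over all genes was 712234 to 742246 in WT and 814376 to 976830 in R442Q late 2-cell embryos, so the genotypes did not overlap in that total.

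The stretches upstream of Yap1, Wwtr1 and Nf2 are shown because these genes carried the differences described below. They are the 250 bases before a RefSeq start (GRCm38.p6), written 5′ to 3′ on the gene's strand, and capitals mark the TEAD core motif GGAATG or its reverse complement CATTCC.
Yap1: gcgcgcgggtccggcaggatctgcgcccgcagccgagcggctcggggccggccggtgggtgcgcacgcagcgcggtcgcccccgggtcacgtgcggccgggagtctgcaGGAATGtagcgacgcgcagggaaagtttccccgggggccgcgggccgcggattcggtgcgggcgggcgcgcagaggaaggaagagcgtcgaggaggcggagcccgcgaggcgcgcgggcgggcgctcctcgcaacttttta
Wwtr1: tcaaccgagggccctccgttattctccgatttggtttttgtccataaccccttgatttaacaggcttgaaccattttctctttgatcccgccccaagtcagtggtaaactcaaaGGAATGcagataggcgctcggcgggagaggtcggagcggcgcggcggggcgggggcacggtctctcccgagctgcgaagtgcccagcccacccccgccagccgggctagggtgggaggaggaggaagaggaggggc
Nf2: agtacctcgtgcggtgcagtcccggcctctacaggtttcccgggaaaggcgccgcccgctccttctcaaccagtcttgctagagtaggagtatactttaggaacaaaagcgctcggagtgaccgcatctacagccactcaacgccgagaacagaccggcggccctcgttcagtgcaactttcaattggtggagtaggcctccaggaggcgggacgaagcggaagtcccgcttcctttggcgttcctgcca
The Yap1 window lies at chr9:8004597-8004846, the Wwtr1 window at chr3:57575911-57576160 and the Nf2 window at chr11:4849545-4849794, all on the minus strand and none of them in an annotated exon. RefSeq windows were found for 8 of the 10 genes, 13 windows in all. The motif occurred in 5 of these 13 windows, from 3 of the 8 genes. It was in the 1 window of Yap1, in both of Wwtr1 and in 2 of the 3 of Tead3. The windows of Wwtr1 overlap and hold the same match. Of all 32851 windows, 12.6% held the motif. It is not in the Nf2 windows searched. A match in these letters is a description and not a binding site.

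Yap1 was the highest of the 10 genes per transcript length in zygotes, and Nf2 was the highest in late 2-cell embryos. In WT zygotes the median was 22.1 FPKM for Yap1 and 12.5 for Nf2, and every embryo had more Yap1 than Nf2. Amot and Tead2 followed at 2.87 and 2.17 FPKM, and the other 6 genes had medians of at most 1.08. In WT late 2-cell embryos Nf2 (69.2 FPKM) stood above Yap1 (27.9), Wwtr1 (14.2) and Tead4 (11.9), and the ranges of Nf2, Yap1 and Wwtr1 did not overlap in that order, while those of Wwtr1 and Tead4 did. In R442Q late 2-cell embryos the median was 43.9 FPKM for Nf2 and 14.6 for Yap1. In counts this order turned there, with median CPM of 44.7 for Nf2, 57.6 for Yap1 and 56.7 for Wwtr1. In WT blastocysts Tead4 (30.7 FPKM) and Wwtr1 (17.7) had the highest medians, and the ranges of all neighbours in the order overlapped. The stages come from tables deposited separately, so FPKM levels across stages are set side by side here, and the changes from zygote to late 2-cell embryo were tested on counts, with FPKM as an alternative.

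**Figure D1:**
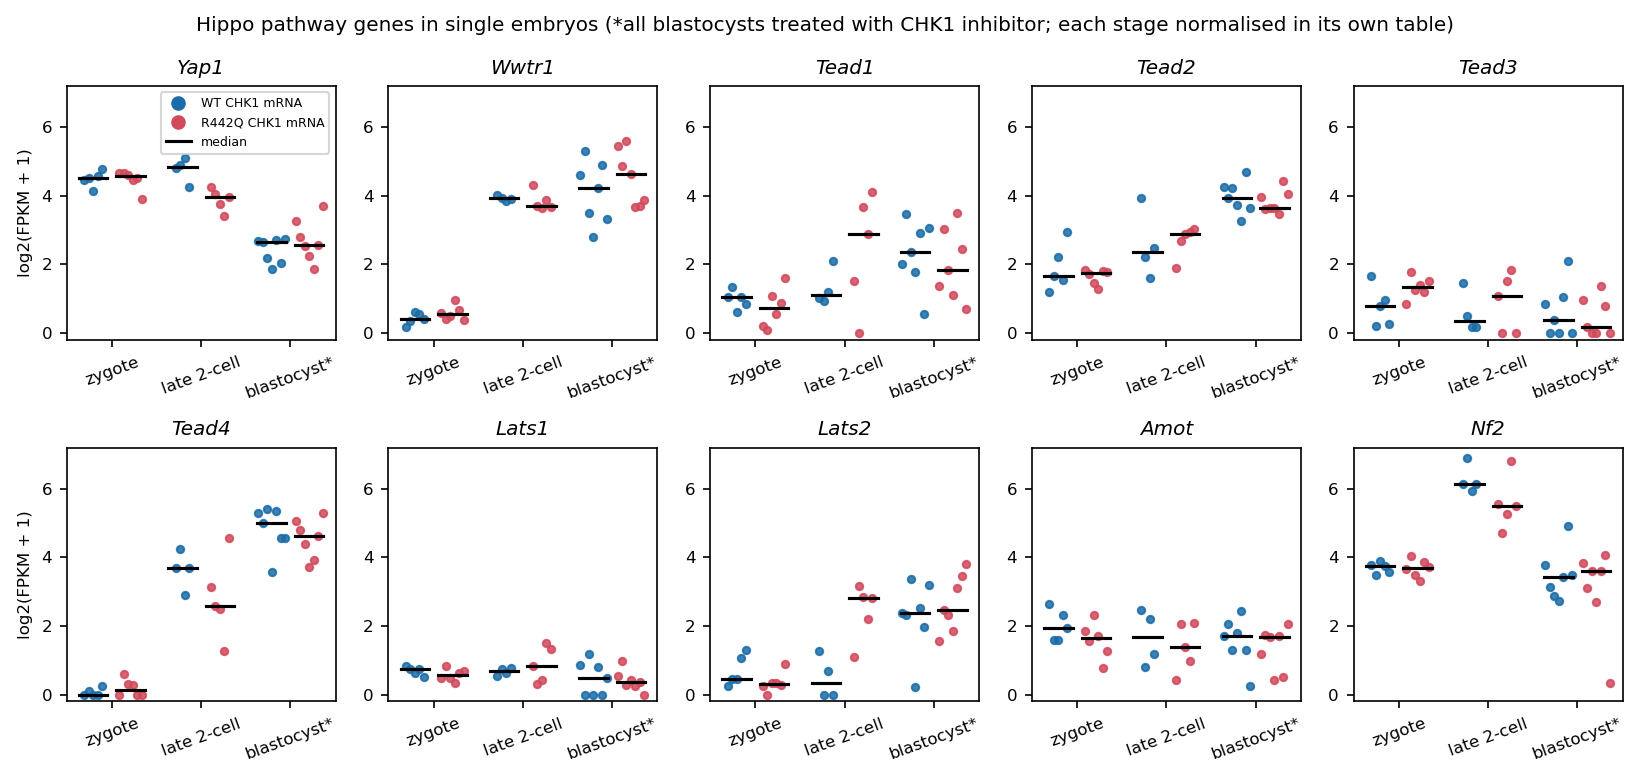
Level of each Hippo pathway gene in every embryo, as log2(FPKM + 1), at 3 stages, with WT in blue and R442Q in red and black bars at the medians. Wwtr1 and Tead4 lie near 0 in zygotes and high in the later stages, Yap1 has its lowest medians in blastocysts, and Nf2 is highest in late 2-cell embryos.

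Wwtr1 and Tead4 rose from zygote to late 2-cell embryo in both genotypes, and Nf2 rose in WT embryos. Across all genes tested the background was high: 61.2% of 16199 genes were called in WT embryos and 65.1% in R442Q embryos. Of the 10 Hippo genes 3 were called in each genotype, a lower share than that background. The median log2 change of the 10 was 0.40 in WT and 0.89 in R442Q, beside 0.34 and 0.22 over all genes tested. The change was tested on counts with edgeR in a model of 4 groups, with a call at an adjusted p under 0.05. A rise or fall is relative to the scaled library, and amounts per embryo were not measured. Any difference in library preparation between the stages cannot be told apart from stage.

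Wwtr1 encodes TAZ. In WT zygotes its values were 0.618, 1.26, 2.39, 2.16 and 1.47 CPM, and in WT late 2-cell embryos they were 72.9, 66.8, 63.6 and 66.8 CPM. R442Q zygotes had a lowest value of 1.42, a median of 2.14 and a highest of 4.30 CPM, and R442Q late 2-cell embryos had 87.0, 56.7, 52.3, 63.8 and 54.2 CPM. Every late 2-cell embryo was above every zygote. The log2 change was 5.32 ± 0.40 (SE) in WT (edgeR adjusted p = 1.4e-10) and 4.55 ± 0.35 in R442Q (edgeR adjusted p = 1.2e-10). The 2 changes differed by -0.77 ± 0.48, which did not pass the interaction test (edgeR adjusted p = 0.339).

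Tead4 encodes the TEAD factor required for trophectoderm. It had 0, 1, 0, 0 and 5 counts in the WT zygotes and 0, 11, 4, 5, 0 and 0 in the R442Q zygotes. At the late 2-cell stage it had 176, 310, 103 and 162 counts in WT and 114, 64, 81, 18 and 443 in R442Q. Every late 2-cell embryo was above every zygote, and the R442Q late 2-cell embryos spanned the whole WT range. The fitted log2 change was 7.45 ± 1.12 (SE) in WT (edgeR adjusted p = 5.2e-06) and 5.37 ± 0.91 in R442Q (edgeR adjusted p = 2e-05), and its size rests on the few zygote counts. Tead4 had too few counts for the genotype test in zygotes.

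Yap1 fell from zygote to late 2-cell embryo in R442Q embryos, by 0.74 ± 0.22 (SE) on the log2 scale (edgeR adjusted p = 0.00505), and did not pass the test in WT embryos, at 0.27 ± 0.24 (edgeR adjusted p = 0.324). Tead1, Tead2, Tead3, Lats1, Lats2 and Amot passed in neither genotype. Among these, Tead2 had the smallest adjusted p, with log2 changes of 1.17 ± 0.53 in WT (edgeR adjusted p = 0.0569) and 0.97 ± 0.47 in R442Q (edgeR adjusted p = 0.0766). Over the alternatives Tead2 was called in 3 of 14 in WT and 4 of 16 in R442Q. In R442Q, Tead1 was called in 2 of 16 alternatives and Lats2 in 1 of 16. Tead3, a close relative of the other Tead genes, had log2 changes of -0.65 ± 1.11 and -1.06 ± 1.0.

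**Figure D2:**
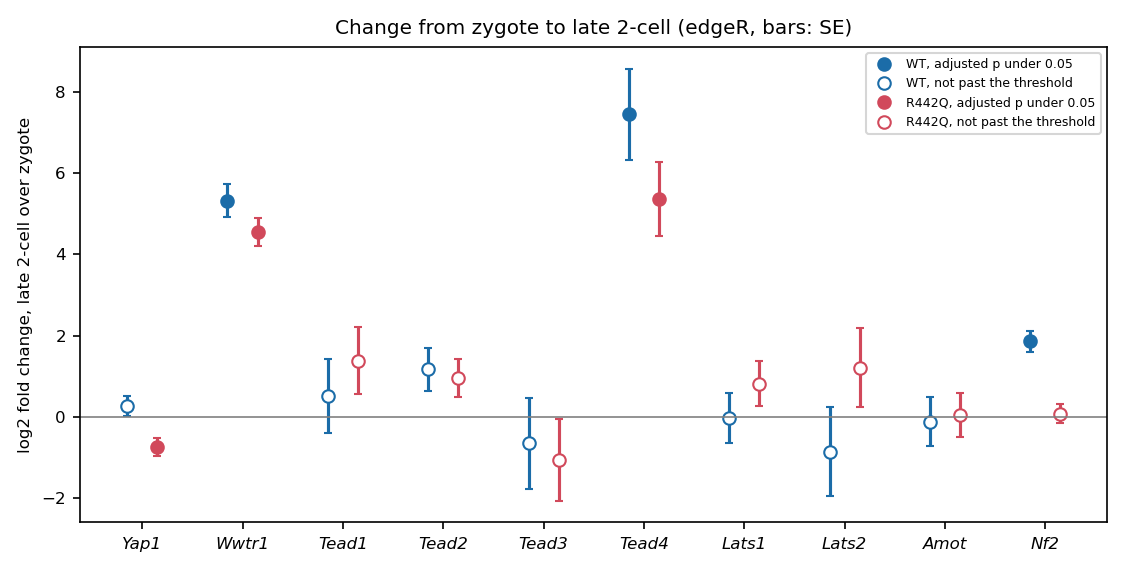
log2 fold change of each Hippo gene from zygote to late 2-cell embryo in WT (blue) and R442Q (red), from edgeR, with SE bars and filled points past an adjusted p of 0.05. Wwtr1 and Tead4 stand high in both genotypes, and the genotypes part at Nf2 (1.86 and 0.08) and Yap1 (0.27 and -0.74).

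The paralogues changed places between stages. Wwtr1 made up a median of 1.25% of the summed Yap1 and Wwtr1 FPKM in WT zygotes, 34.7% in WT late 2-cell embryos and 76.2% in WT blastocysts, and 2.11%, 47.4% and 82.6% in R442Q. At the late 2-cell stage the share ran from 28.7 to 43.6% in WT and from 43.9 to 58.4% in R442Q, so the ranges were next to each other. The difference in this share was not tested. Of single genes 10.4% did not overlap in FPKM at this stage, and no such figure was computed for shares of gene pairs. Tead4 made up a median of 0% of the 4 Tead genes in WT zygotes, 62.6% in WT late 2-cell embryos and 55.6% in WT blastocysts. Tead2 led in WT zygotes with 55.6%. Lats2 made up 40.7% of the summed Lats1 and Lats2 FPKM in WT zygotes and 95.2% in WT blastocysts, with values that spread widely in between.

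**Figure D3:**
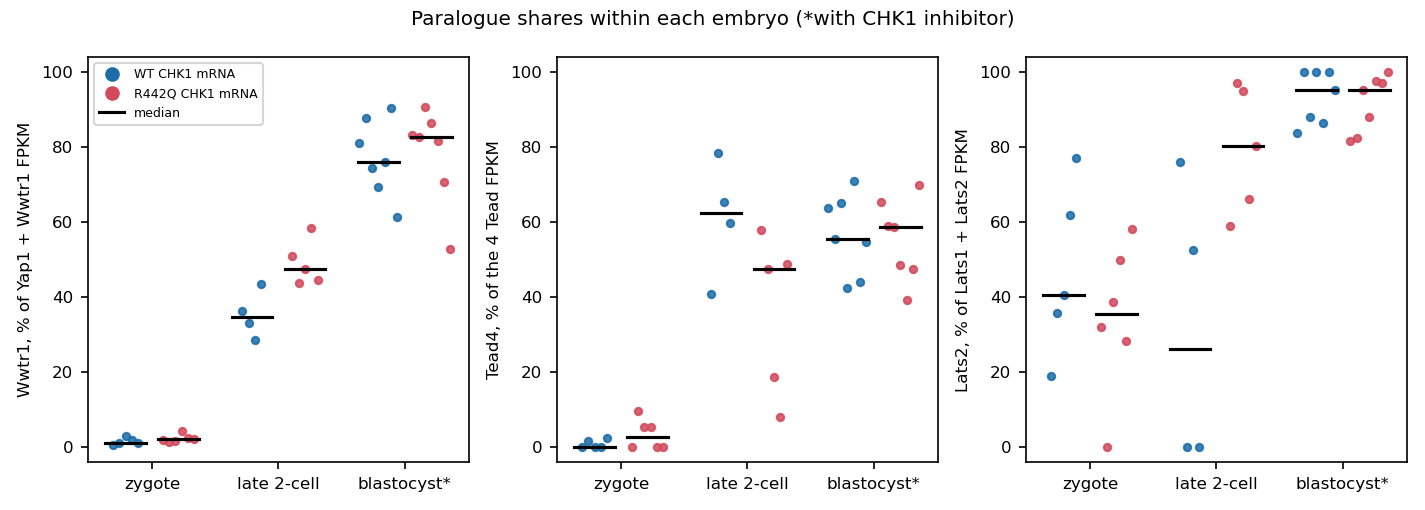
Share of Wwtr1 in Yap1 plus Wwtr1, of Tead4 in the 4 Tead genes and of Lats2 in Lats1 plus Lats2, as percent of summed FPKM within each embryo, with black bars at the medians. The Wwtr1 share lies between 0.656 and 4.25% in zygotes and between 52.9 and 90.8% in blastocysts.

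In zygotes none of the Hippo genes differed between R442Q and WT past the threshold. Of the 10 genes 9 had enough counts to test and 0 were called by edgeR, while 13.2% of the 12420 genes tested were. None of them had an unadjusted p under 0.05. Log2 differences ran from -0.92 for Lats2 (SE 0.66) to 0.93 for Tead3 (SE 0.57), with a median of 0.07 beside 0.01 over all genes. With an embryo left out the Tead3 value ran from 0.65 to 1.70 and was not called. Yap1, the most abundant of them, had 85.1, 85.7, 63.5, 91.4 and 104 CPM in WT and between 52.5 and 93.1 (median 87.9) in R442Q. The genotypes overlapped in CPM at each of the 10 genes, while 9.18% of genes with a mean of at least 1 CPM showed no overlap.

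At the late 2-cell stage Nf2 was lower in R442Q, and Yap1 was lower without passing the threshold. Of the 10 genes 1 was called by edgeR, beside 4.18% of the 13883 genes tested and 2.95% called lower. The median log2 difference of the 10 was 0.10 beside 0.07 over all genes. Nf2 and Yap1 were the 2 genes whose genotypes did not overlap in CPM, where 11.4% of genes showed no overlap.

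Nf2 encodes merlin, the membrane-linked protein that recruits LATS kinases. The gene spans chr11:4765845-4849536 of GRCm38 on the minus strand, with 13 annotated transcripts of 341 to 4720 bases. It had 130, 224, 142 and 170 CPM in the WT late 2-cell embryos and 54.0, 32.8, 36.4, 72.7 and 44.7 CPM in the R442Q ones. In zygotes it had 48.2, 35.7, 48.9, 44.1 and 42.8 CPM in WT, and 31.3 to 48.2 (median 41.1) in R442Q. The R442Q late 2-cell embryos thus stayed near the zygote level in counts, while every WT late 2-cell embryo was above every zygote. The log2 difference at the late 2-cell stage was -1.69 ± 0.34 (SE, edgeR adjusted p = 0.0152). The change from zygote was 1.86 ± 0.26 in WT (edgeR adjusted p = 1.9e-06) and 0.08 ± 0.23 in R442Q (edgeR adjusted p = 0.775). The difference between these changes, the interaction, was -1.78 ± 0.35 (edgeR adjusted p = 0.00257), where 10.1% of the 16199 genes tested were called and 7.05% in that direction.

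Per transcript length the Nf2 difference was smaller. Its FPKM was 69.3, 117, 59.8 and 69.2 in WT late 2-cell embryos and 46.3, 25.3, 37.4, 111 and 43.9 in R442Q, so the genotypes overlapped through 1 R442Q embryo. WT zygotes had 10.3 to 13.7 FPKM and R442Q zygotes 8.87 to 15.3, so by this measure all late 2-cell embryos of both genotypes were above all zygotes. With limma on log2(FPKM + 1), a scale that understates changes of low genes, the late 2-cell difference was -0.70 (limma adjusted p = 0.297). On the same scale, with both deposited tables joined, Nf2 was called as rising from zygote to late 2-cell in R442Q as well, by 1.89 (limma adjusted p = 2.6e-06), where 67.4% of all genes tested were called.

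Counts and FPKM together give the transcript length that the authors' normalisation implies for a gene, here taken as the CPM divided by the FPKM, a value in kilobases that is printed in bases. For Nf2 it was 3793, 3474, 3565, 3533 and 3883 bases in the WT zygotes and 2742 to 3693 (median 3534) in the R442Q zygotes. At the late 2-cell stage it was 1875, 1921, 2376 and 2455 bases in WT and 1167, 1298, 975, 656 and 1020 in R442Q. No R442Q late 2-cell embryo reached the lowest WT one, and no late 2-cell embryo reached the lowest zygote. The log2 difference between genotypes at this stage was -1.10 ± 0.20 (SE, limma adjusted p = 0.0286), the 10th largest shortening among 3972 genes with at least 100 counts in every embryo. Over those genes 3.27% were called in either direction and 31.0% were shorter in R442Q without overlap, and the median log2 difference was -0.05. The call was lost in 5 of the 9 fits that left out 1 embryo, those without WT embryo 1, 2, 3 or 4 or R442Q embryo 5. It was also lost with each library centred on its median (-1.05, limma adjusted p = 0.0514) and with the replicate number as a block (-1.11, limma adjusted p = 0.195). That block fit also left out R442Q embryo 5. The interaction with stage was -0.99 ± 0.20 (limma adjusted p = 0.00341), with 31.5% of 2768 genes called in that direction.

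**Figure D4:**
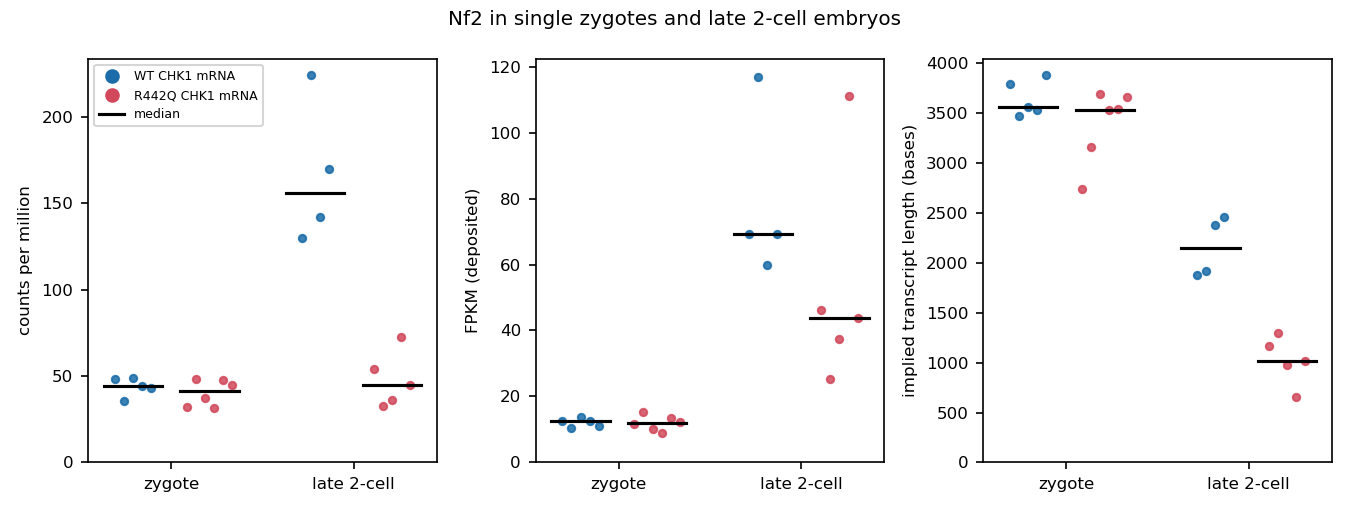
Nf2 in single zygotes and late 2-cell embryos as CPM, as deposited FPKM and as implied transcript length in bases, with WT in blue, R442Q in red and black bars at the medians. The late 2-cell genotypes separate in CPM and in length and overlap in FPKM.

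The Nf2 call on counts did not hold in every fit. It was lost when trends of counts on gene length and GC content were removed (-0.73, edgeR adjusted p = 0.457), with the replicate number as a block (-1.71, edgeR adjusted p = 0.0777), and without WT embryo 2 (-1.51, edgeR adjusted p = 0.0682) or WT embryo 4 (-1.67, edgeR adjusted p = 0.0513), where the difference stayed nearly as large. The block fit also left out R442Q embryo 5, whose number no WT embryo shares. With the length and GC trends removed the interaction of Nf2 was also not called (-0.76, edgeR adjusted p = 0.319), nor was it on log2(FPKM + 1) (-0.68, limma adjusted p = 0.312). The part of the higher summed FPKM of the R442Q late 2-cell libraries in these values was not tested.

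Yap1 encodes YAP and lies at chr9:7931999-8004596. It had 112, 118, 134 and 75.9 CPM in the WT late 2-cell embryos and 72.8, 63.5, 48.6, 39.5 and 57.6 CPM in the R442Q ones. All 5 R442Q embryos were below all 4 WT embryos, with the closest pair at 72.8 and 75.9 CPM. The log2 difference was -0.85 ± 0.31 (SE) and missed the threshold (edgeR adjusted p = 0.129), but passed with DESeq2 (adjusted p = 0.0471) and in the edgeR model of 4 groups (adjusted p = 0.0115). With length and GC trends removed it was -0.58 (edgeR adjusted p = 0.478). Per length the values were 26.9, 28.8, 33.1 and 18.2 FPKM in WT and 18.1, 15.5, 12.6, 9.71 and 14.6 in R442Q, again without overlap, as in 10.4% of genes with a mean of at least 1 FPKM. The implied length of Yap1 differed by 0.972-fold between the genotypes (limma adjusted p = 0.200). The interaction with stage was -1.01 ± 0.32 (edgeR adjusted p = 0.0464), and it kept its call in 3 of the 20 fits that left out 1 embryo, those without WT zygote 5, WT late 2-cell embryo 4 or R442Q late 2-cell embryo 1. With 1 left-out embryo its value ranged from -1.15 to -0.77. The interaction was also not called with DESeq2 (-0.86, adjusted p = 0.0557) or with length and GC trends removed (-0.56, edgeR adjusted p = 0.400).

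Wwtr1 differed by 0.01 ± 0.30 between the late 2-cell genotypes (edgeR adjusted p = 0.993). The log2 differences of the Tead genes ran from -0.48 ± 0.63 for Tead4 to 1.06 ± 1.13 for Tead1, and none was called. With an embryo left out Tead4 ran from -1.20 to -0.20 and Tead1 from 0.49 to 1.35. Tead1 varied widely in R442Q, with 5, 0, 78, 18 and 117 counts, against 23, 16, 22 and 15 in WT. Amot differed by 0.15 ± 0.76 and Lats1 by 0.73 ± 0.85.

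**Figure D5:**
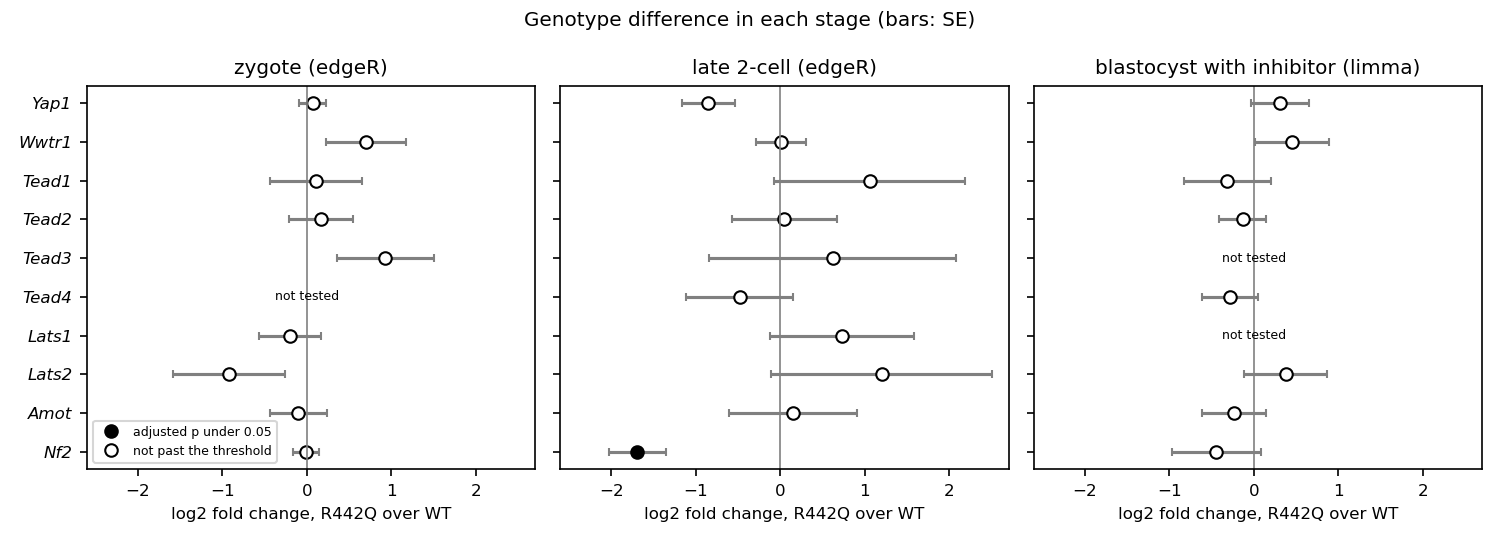
log2 fold change of each Hippo gene, R442Q over WT, with SE bars, in zygotes and late 2-cell embryos (edgeR on counts) and in blastocysts (limma on log2(FPKM + 1)). The filled point is Nf2 in late 2-cell embryos at -1.69, and all other tested genes are open.

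Lats2, 1 of the 2 kinases that phosphorylate YAP and TAZ, was low at the late 2-cell stage and its 2 measures diverged. It had 15, 0, 21 and 0 counts in WT and 3.90, 27, 20, 17 and 32.3 estimated counts in R442Q, with a log2 difference of 1.20 ± 1.31 (edgeR adjusted p = 0.65). Its FPKM was 1.39, 0, 0.61 and 0 in WT and 1.13, 7.91, 6.21, 3.58 and 6.07 in R442Q, so 4 of 5 R442Q embryos were above every WT embryo. With limma on log2(FPKM + 1) this difference passed the threshold (limma adjusted p = 0.0438), and so did the interaction with stage (2.29, limma adjusted p = 0.00505). On counts the interaction of Lats2 was 2.06 ± 1.47 and was not called (edgeR adjusted p = 0.414). The length implied for Lats2 was 531 to 794 bases in the R442Q late 2-cell embryos, and 1744 and 5313 bases in the 2 WT embryos with reads. Few reads stand behind each of these values. An annotated gene, Gm49361, overlaps Lats2 on the same strand.

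In blastocysts none of the Hippo genes differed between genotypes past the threshold. In bulk RNA from a whole embryo fewer cells of a type and less RNA per cell cannot be told apart. Of the 10 genes 8 passed the filter on low values and 0 were called by limma, as against 0.00885% of the 11297 genes tested, which is 1 gene. None had an unadjusted p under 0.05. Tead3 and Lats1 had medians of at most 0.41 FPKM and were not tested.

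Yap1 ran from 2.63 to 5.63 FPKM (median 5.33) in WT blastocysts and from 2.62 to 12.1 (median 4.91) in R442Q blastocysts. Wwtr1 ran from 5.93 to 38.2 (median 17.7) and from 11.7 to 47.6 (median 23.6). Tead4 ran from 10.8 to 41.5 (median 30.7) and from 12.1 to 37.8 (median 23.4). The genotypes overlapped at all 10 genes, where 0.381% of genes with a mean of at least 1 FPKM showed no overlap. The log2 differences ran from -0.44 ± 0.53 for Nf2 to 0.45 ± 0.44 for Wwtr1, with a median of -0.18 beside -0.10 over all genes tested. R442Q blastocyst 7 had 0.26 FPKM of Nf2 against 5.44 to 29.3 in the other blastocysts, and without it the Nf2 difference was 0.01.

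Another 49 genes of the pathway were examined as a list: 24 upstream regulators, 4 Vgll cofactors and 21 target genes. From zygote to late 2-cell embryo 17 of the 36 tested were called in WT (8 rose and 9 fell) and 23 of 36 in R442Q (9 rose and 14 fell), shares of 47.2% and 63.9% beside the backgrounds of 61.2% and 65.1%. Mob1a, an adaptor of LATS kinases, rose by 2.38 ± 0.21 in WT and 1.47 ± 0.19 in R442Q, and Ajuba, a LIM protein that binds LATS, by 6.11 ± 0.65 and 5.07 ± 0.56. Stk3, an MST kinase that activates LATS, fell by 1.95 ± 0.41 and 2.74 ± 0.38. Gata3 fell by 2.49 ± 0.41 and 3.82 ± 0.39. These are log2 values from the edgeR model.

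Between genotypes, 2 of 25 list genes (8.0%) were called in zygotes by edgeR, beside 13.2% of all genes tested. Btrc was lower by a log2 value of -0.51 and Asap1 higher by 0.53. The count ran from 0 to 6 over the alternatives, where 1.67% of all genes were called in the model of 4 groups and 16.9% with DESeq2. At the late 2-cell stage 3 of 33 (9.09%) were called, beside 4.18% of all genes tested and 2.95% called lower. All 3 were lower in R442Q: Wwc2 (-1.27 ± 0.30, edgeR adjusted p = 0.0308), Taok2 (-1.96 ± 0.51, edgeR adjusted p = 0.0455) and Mob1a (-1.02 ± 0.27, edgeR adjusted p = 0.0463). The interaction was called for 4 of 36 (11.1%), these 3 genes and Asap1, a share near the 10.1% of all genes tested. Mob1a had a median of 208 CPM in WT and 93.3 in R442Q late 2-cell embryos, and 85.2 and 83.8 FPKM. Wwc2, a KIBRA family scaffold, had medians of 307 and 122 CPM, and ran from 26.1 to 38.5 FPKM in WT and from 6.86 to 15.8 in R442Q. The genotypes did not overlap in either unit at Wwc2, and at Mob1a they overlapped in FPKM and not in CPM, where 11.4% of genes showed no overlap in CPM and 10.4% in FPKM. Both counts, 3 and 4, were 0 when the length and GC trends were removed, where 0.988% and 5.82% of all genes were called. The first ran from 0 to 2 in the 9 fits that left out 1 embryo (0.967 to 6.76% of all genes called). It reached up to 6 in the other alternatives (up to 16.7%).

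In blastocysts 0 of 29 list genes were called by limma. Amotl2, an angiomotin relative and YAP target, had the smallest unadjusted p among the always-named genes (0.036), with a log2 difference of -1.11 ± 0.49 and a limma adjusted p of 0.632. Its values ran from 15.8 to 51.9 FPKM (median 23.3, mean 31.2) in WT and from 1.81 to 25.3 (median 20.7, mean 16.1) in R442Q. Cdx2 ran from 7.47 to 51.0 FPKM (median 12.3) in WT and from 0.21 to 26.6 (median 13.0) in R442Q, with a log2 difference of -0.93 ± 0.65 (limma adjusted p = 0.815). Gata3 had medians of 258 and 280 FPKM and a log2 difference of -0.13 ± 0.41 (limma adjusted p = 0.968). The targets Ccn1 (listed as Cyr61) and Ccn2 (listed as Ctgf) had medians of 62.6 and 35.1 FPKM in WT and 75.2 and 66.5 in R442Q. Their log2 differences had the opposite sign to their medians, at -0.45 ± 0.96 and -0.07 ± 1.0, and neither was called. The medians and log2 differences of Cdx2 and Gata3 also differed in sign. Sav1, Stk3's scaffold partner, was too low to be tested in any comparison.

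By Pearson correlation of log2(FPKM + 1) over all 34 embryos, among 16377 genes, the gene most like Wwtr1 was Pramel4 (r = 0.96), the one most like Tead4 was Calcoco2 (0.96), the one most like Yap1 was Fkbp5 (0.93) and the one most like Nf2 was Pafah1b2 (0.90). For Tead1, Tead3 and Amot the closest gene had an r of 0.76, 0.63 and 0.57. The 34 embryos fall into 3 stages, and correlations within a stage were not computed.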

How the data were processed

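RNA of single embryos (SMART-seq2, Tn5 libraries, HiSeq X-10, per the labels) was measured. The authors deposited estimated counts per gene for zygotes and late 2-cell embryos, and FPKM normalised by the authors for all 3 stages. RSEM and mm10 are named in the submitters' processing notes; the aligner, annotation and use of strand are not given in the sources used here. Positions are from GENCODE M21 (GRCm38). Yap1, Wwtr1, Tead1, Tead2, Tead4 and Lats2 overlap other annotated genes there, whose reads may be shared: Tead1 and Lats2 overlap one on the same strand, and all 6 overlap one on the opposite strand, which matters if strand was not used. The 10 genes and the pathway lists were chosen with earlier results of these data known, and all 10 are described. Beyond them, 12 pathway genes were always named, with up to 5 further called genes in each comparison. Whether embryos share a litter is not stated, so p-values measure the spread between these embryos.

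Counts were rounded and tested with edgeR 4.0.16 (R 4.3.3): TMM scaling, filterByExpr with a minimum of 10 counts, quasi-likelihood test, each stage alone for genotype and 1 model of 4 groups for stage and interaction. Blastocysts were tested with limma 3.58.1 on log2(FPKM + 1) for genes at FPKM of at least 1 in 7 of 14 embryos. P-values were adjusted by Benjamini-Hochberg over all genes tested. CPM is the count scaled to the library's total. Implied length was tested with limma on the log2 scale, and was added after the data were seen; its size assumes that FPKM was scaled to the same total. DESeq2 1.42.0, other scalings, filters and left-out embryos were tried, and the scripts were tested on simulated data.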

Additional observations from a re-analysis of the deposited data

Results flagged for a closer look

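Of 60 groups of embryos examined for a value far from the others, 5 held one. The cut-off is passed in about 1 in 20 groups of normally distributed values. Unlogged CPM and FPKM near 0 need not be so distributed, so the 5 cannot be set against chance. Yap1 was lowest in R442Q zygote 6 (52.5 CPM, the others 84.5 to 93.1). Tead2 was highest in WT zygote 5 (7.23 CPM, the others 2.27 to 3.22), and so was Tead4 (0.565 CPM, the others 0 to 0.115). Tead3 and Nf2 were both highest in WT blastocyst 6, at 3.31 FPKM (the others 0 to 1.05) and 29.3 FPKM (the others 5.62 to 12.7). Without that blastocyst the log2 difference of Nf2 between the genotypes moved from -0.44 to -0.20.

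The genotype difference changed between zygotes and late 2-cell embryos in 3 measures by the interaction test: Nf2 counts (-1.78 on the log2 scale, edgeR adjusted p = 0.00257), Yap1 counts (-1.01, edgeR adjusted p = 0.0464) and the implied transcript length of Nf2 (-0.99, limma adjusted p = 0.00341). Over all genes tested, edgeR called 10.1% for the interaction of counts, and limma called 31.5% as shorter for that of implied length. The Yap1 call was lost in 22 of 26 alternatives, 17 of them among the 20 fits that left out 1 embryo, and the Nf2 call on counts in 2 of 26.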

How the results depend on the processing

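Of 1016 alternative values of the Hippo genes' fold changes, 906 kept direction and side of the threshold and 66 changed sign. The rise of Wwtr1, Tead4 and, in WT, Nf2 kept its direction and its call in every alternative run. In zygotes and in blastocysts 0 of the Hippo genes were called in every alternative run. Depth limits Tead4, Lats2, Sav1 and other genes near 0 counts, where 3 counts are 0.266 to 0.524 CPM of a library; these floors cover counting error only.

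In late 2-cell embryos the number of Hippo genes called was 1 by default, where 4.18% of all genes were called. It was 2 with DESeq2 and 2 in the model of 4 groups (16.7% and 15.5% of all genes called). It was 0 with the replicate block (0.364%) and 0 with length and GC trends removed (0.988%). With an embryo left out it was 0 to 1 (0.967 to 6.76%), and 0 without WT embryo 2 (0.967%) and without WT embryo 4 (1.42%). The number called for the interaction was 2 by default, where 10.1% of all genes were called. With RLE size factors it was 1 (a share near the default), without a filter 1 (4.59%) and with DESeq2 1 (15.8%), Nf2 in each. With limma on FPKM it was 1 (11.7%), Lats2, with neither Nf2 nor Yap1 called. Removing length and GC trends left 0 (5.82%). Leaving out an embryo gave 1 to 2 (6.76 to 14.6%). From zygote to late 2-cell in R442Q, 7 were called with limma on FPKM, in place of 3, Nf2 (1.89) among them, where 67.4% of all genes were called; those tables were deposited separately. The cause was not tested. The implied length of Nf2 was -1.05 with each library centred on its median (limma adjusted p = 0.0514), -1.11 with the replicate block (limma adjusted p = 0.195), and -1.20 to -0.95 with an embryo left out, with -1.17 to -1.04 where the call was lost.

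Correlations of same-numbered embryos' deviations from their group mean ran from -0.17 to 0.20, and those of differently numbered embryos were not computed. The numbers are those of the sample titles, which in zygotes and late 2-cell embryos differ in part from the column numbers. A pairing by column number was not examined, so the check does not show that embryos are unpaired. With the title number as a replicate block, Nf2 at the late 2-cell stage was -1.71 (edgeR adjusted p = 0.0777), its interaction -1.75 (edgeR adjusted p = 0.0139) and that of Yap1 -1.16 (edgeR adjusted p = 0.0396). Block fits of a single stage also left out R442Q zygote 6 and R442Q late 2-cell embryo 5, whose numbers no WT embryo shares at that stage. The interaction fit kept all embryos.

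Fold changes that changed sign were all of genes not called in that comparison. In zygotes Nf2 was 0.0025 with RLE, 0.003 with DESeq2, 0.02 in the model of 4 groups and 0.02 with trends removed; on FPKM Yap1 was -0.03, Tead1 -0.24 and Tead2 -0.27; with the replicate block Tead1 was -0.37. In late 2-cell embryos Wwtr1 was -0.01 with RLE and with DESeq2, -0.06 without a filter, -0.09 on FPKM and -0.05 in the model of 4 groups. There Tead2 was -0.02 without a filter, Tead4 0.44 with trends removed, Amot -0.28 on FPKM and -0.64 with the block, and Tead1 -0.85 with the block. Between stages Lats1 in WT was 0.05 with the block, and Amot in R442Q -0.20 on FPKM. For the interaction Tead2 was 0.84 with trends removed and 0.40 on FPKM, and Tead3 0.85 with trends removed.

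With an embryo left out, values in zygotes spanned -0.02 to 0.19 for Yap1, -0.28 to 0.07 for Amot, -0.09 to 0.06 for Nf2, and -0.36 to 0.36 for Tead1. In late 2-cell embryos they spanned -0.19 to 0.10 for Wwtr1, -0.23 to 0.51 for Tead2, and -0.35 to 0.50 for Amot. Nf2 in blastocysts ran from -0.61 to 0.01. From zygote to late 2-cell, WT values spanned -2.28 to 0.08 for Tead3, -0.63 to 0.02 for Amot and -0.21 to 0.11 for Lats1, and R442Q values spanned -0.38 to 0.33 for Amot, and -0.07 to 0.28 for Nf2. The interaction spanned -1.14 to 1.22 for Tead3, and -0.64 to 0.38 for Tead2, and -0.15 to 0.64 for Amot.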
